A study of Mus musculus with 23 samples.

Results

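Genes that sense microbes and inflammatory cytokines, or that carry and restrain the resulting NF-kB signal, were followed across single mouse mesenchymal stem cells, 10 in all. They are the receptors and coreceptor Cd14, Tlr2, Tlr3, Tlr4, Il1r1 and Tnfrsf1a, the adaptor Myd88, the transcription factor subunit Nfkb1 and the inhibitors Nfkbia and Tnfaip3. The 10 genes were taken by symbol from an expression table of 23284 genes, in which each symbol occurred once. Bone marrow-derived mesenchymal stem cells (mMSC), purchased and derived from 3-month-old male mice, were used at passages 6 to 11, and 16 of them were sequenced individually. HL-1 cardiomyocytes (HL1cm), a line derived from a mouse atrial tumour, were used at passages 70 to 85, and 5 cells of this line served as non-MSC controls. One bulk population control (PC) of each type, mMSC-PC and HL1cm-PC, brings the number of libraries to 23. All samples carry the strain label C57BL/6J, none was given an inflammatory stimulus, and cells were captured on a Fluidigm C1 microfluidic chip for cells of 17 to 25 micrometres. The mMSCs were grown on gelatin in alpha-MEM with serum, whereas the HL1cm were grown on fibronectin and gelatin in Claycomb medium with serum and norepinephrine, and only the HL1cm were stained with a green cytoplasmic dye before capture, so that cell type, culture medium and dye cannot be told apart.

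Toll-like receptors recognise molecules of bacteria and viruses, and the receptors for interleukin 1 and tumour necrosis factor recognise cytokines that are released during inflammation. Through adaptors such as Myd88, their signals converge on kinases that mark the inhibitor encoded by Nfkbia for destruction, after which NF-kB dimers enter the nucleus and switch on chemokines, cytokines and their own inhibitors. Mesenchymal stem cells are known to alter the release of immune mediators when these receptors are engaged, which is one reason why their variation between cells is of interest.

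Levels are given as FPKM, which scales the sequenced fragments of a gene by the length of its exons and by the size of the library and thus allows genes to be set beside each other. As separate cultures are named nowhere in the labels or methods, each cell type counts as 1 sample, and comparisons between cell types are given without a test. For these comparisons values under 1 FPKM were set to 1 and log2 values were averaged over cells. A gene was called higher or lower where the averages differed by 1 or more, which is a doubling. A value of 0 means only that the gene was listed at 0 in that library, because the number of reads behind a value is unknown.

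Between 5198 genes in mMSC9 and 7641 in mMSC5 were above 0 in single mMSCs, and between 6788 and 7226 in single HL1cm. The bulk mMSC-PC had 10279 such genes and HL1cm-PC 10157. The cells mMSC9 and mMSC15 had the fewest genes above 0. Rescaling the libraries to a common FPKM sum (TPM) would multiply the values by 0.395 to 1.59 in single mMSCs and by 0.443 to 1.49 in single HL1cm. Of 8 genes that every cell uses, 6 were above 0 in every single mMSC and 7 in every single HL1cm. The exceptions were Tbp in both types and Canx in mMSCs. Canx was listed at 0 in mMSC12 but lay between 809 and 1991 FPKM in the other 15 mMSCs. A listed 0 thus also occurred for a gene that was high in all other cells of its type. Of 11 mesenchymal markers, 8 were higher in mMSCs, and Thy1, Lum and Dcn were listed at 0 in all 23 libraries. Of 11 cardiomyocyte markers, 10 were lower in mMSCs than in HL1cm. The labels of the 2 cell types were therefore matched by most, but not all, of their markers.

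Across the 16 mMSCs, the 10 genes gave 160 values, of which 119 (74.4%) were above 0, whereas 11 of 50 values (22.0%) were above 0 in the HL1cm. A single mMSC had between 5 (mMSC9) and 9 (mMSC4) of the genes above 0, with a median of 8, and a single HL1cm had between 1 (HL1cm3) and 3 (HL1cm4). The number of the 10 genes above 0 in an mMSC went with the number of all genes above 0 in that cell (Pearson's r = 0.53, Spearman's rho = 0.45, n = 16 cells of the same capture). The cell mMSC9 was lowest in both counts. In contrast, mMSC15, with the second fewest genes above 0 (5902), had 8 of the 10. In 8 or more of the 16 mMSCs, 8 of the 10 genes exceeded 0, as did 65.5% of the genes that reached 1 FPKM in 2 or more mMSCs. The exceptions were Tlr2 and Tlr4. No gene of the 10 was above 0 in every mMSC, and 14 different combinations of genes above 0 occurred among the 16 cells.

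**Figure D1:**
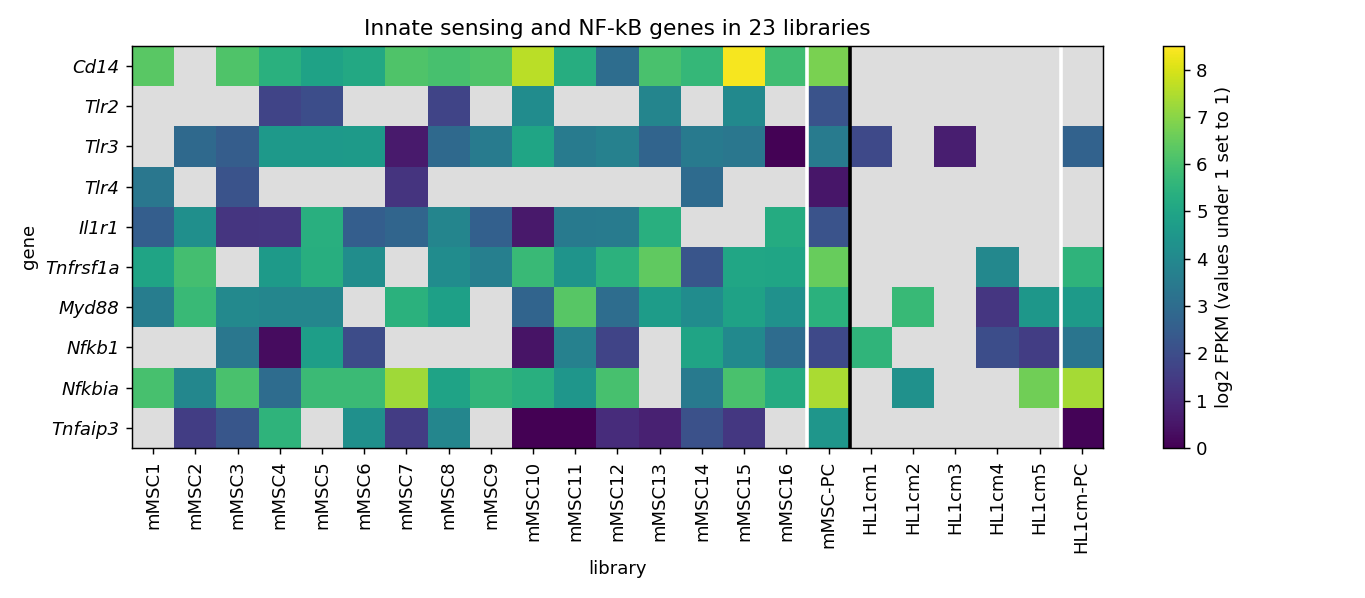
The colours show log2 FPKM, with values under 1 set to 1, for each of the 10 genes (rows) in each of the 23 libraries (columns), and grey marks a value listed at 0. White lines set off the population controls and a black line separates mMSC from HL1cm libraries. Cd14, Tlr3 and Nfkbia are filled in 15 of 16 mMSCs, Tlr2 and Tlr4 are mostly grey, and the HL1cm columns are grey for Cd14, Tlr2, Tlr4, Il1r1 and Tnfaip3.

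By median FPKM over the 16 mMSCs, the genes were ordered Cd14 (62.5), Nfkbia (44.5), Tnfrsf1a (28.1), Myd88 (16.8), Tlr3 (10.8), Il1r1 (6.45), Tnfaip3 (2.36) and Nfkb1 (2.35), with Tlr2 and Tlr4 at a median of 0. Neighbours in this order overlapped throughout. Cd14 exceeded Nfkbia in 11 of 16 cells and Nfkbia exceeded Tnfrsf1a in 12 of 16, while Tnfaip3 exceeded Nfkb1 in only 6 cells and was below it in 8. The SD of log2 FPKM between mMSCs ran from 1.17 for Tlr4 to 1.92 for Tnfrsf1a and Nfkb1, which is more than all but 1 of the steps between neighbours in mean log2 FPKM. Among the 10867 genes that reached 1 FPKM in 2 or more mMSCs, Cd14 had a higher mean log2 FPKM than 87.3% of genes and Nfkbia than 83.8%, whereas Tlr2 and Tlr4 exceeded 33.9% and 19.7%. The SDs of Tnfrsf1a and Nfkb1 were above those of 81.1% and 81.0% of these genes.

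Cd14, a surface coreceptor that hands bacterial lipopolysaccharide to Tlr4, had the highest median of the 6 receptor and coreceptor genes. It was listed at 0 in mMSC2 and lay between 8.20 FPKM (mMSC12) and 337 FPKM (mMSC15) in the other 15 cells, with 198 FPKM in mMSC10 as the second highest value. The single cell mMSC15 held 27.5% of the sum over the 16 cells. All 5 HL1cm and HL1cm-PC were listed at 0, and mMSC-PC was at 112 FPKM. Cd14 thus separated the cell types except for the value at 0 in mMSC2.

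Because Cd14 is best known from monocytes and macrophages, 12 macrophage markers were read beside it. Of these, Ptprc, Emr1, Lyz2, Fcgr3, Laptm5, Tyrobp and Aif1, 7 in number, were listed at 0 in all 23 libraries. The summed level of the 12 markers lay between 0 and 48.1 FPKM in single mMSCs (median 3.67), between 0 and 1.10 FPKM in single HL1cm, and at 21.02 FPKM in mMSC-PC. Csf1r, the receptor for the macrophage growth factor, stood at 32.6 FPKM in mMSC15 and at 32.1 FPKM in mMSC10, the cells with the highest Cd14 levels, and no other marker of the list was above 0 in these cells. Its next highest value was 22.5 FPKM in mMSC16, where Cd14 was at 59.8 FPKM, and the highest value of any marker was 48.1 FPKM for Cd68 in mMSC11, where Cd14 was at 39.1 FPKM. The part of these markers in the Cd14 levels was not tested. In the 4 mMSCs in which all 12 markers were listed at 0, Cd14 was at 80.5 FPKM (mMSC1), 34.8 FPKM (mMSC6), 8.20 FPKM (mMSC12) and 50.8 FPKM (mMSC14).

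The toll-like receptors differed among themselves. Tlr3, which binds double-stranded RNA inside endosomes, was above 0 in 15 of 16 mMSCs, with 0 in mMSC1, a median of 10.8 FPKM and a highest value of 32.2 FPKM in mMSC10. In HL1cm it reached 3.63 FPKM (HL1cm1) and 1.65 FPKM (HL1cm3) and was listed at 0 in the other 3 cells, and 13 mMSCs exceeded the highest HL1cm. The population controls were at 11.6 FPKM (mMSC-PC) and 6.39 FPKM (HL1cm-PC).

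Tlr2, which senses bacterial lipoproteins, was above 0 in 6 mMSCs (37.5%, exact 95% interval 15.2 to 64.6%, covering the sampling of cells only). These were mMSC4 (3.34 FPKM), mMSC5 (4.03 FPKM), mMSC8 (3.37 FPKM), mMSC10 (17.6 FPKM), mMSC13 (14.6 FPKM) and mMSC15 (16.5 FPKM). The values fell into 3 near 3 to 4 FPKM and 3 above 14 FPKM. Tlr4, the signalling receptor for lipopolysaccharide, was above 0 in 4 mMSCs (25.0%, 7.27 to 52.4%), at 10.2 FPKM in mMSC1, 7.84 FPKM in mMSC14, 4.56 FPKM in mMSC3 and 2.41 FPKM in mMSC7. No mMSC had both Tlr2 and Tlr4 above 0, but with so few cells above 0 for either gene, whether they exclude each other cannot be told. Both genes stood at 0 in every HL1cm library, single or bulk, and were at 4.47 FPKM (Tlr2) and 1.44 FPKM (Tlr4) in mMSC-PC.

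Recognition of lipopolysaccharide uses Cd14, Tlr4 and the small Tlr4 partner encoded by Ly96 together. Cd14 and Ly96 were both above 0 in 13 of 16 mMSCs (81.2%, 54.4 to 96.0%), but all 3 genes were above 0 only in mMSC3, mMSC7 and mMSC14 (18.8%, 4.05 to 45.6%). Ly96 had a median of 44.9 FPKM in mMSCs and was listed at 0 in every HL1cm, although HL1cm-PC was at 17.96 FPKM. Tlr4 was accordingly the least often listed of the 3 components.

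Among the cytokine receptors, Il1r1, the signalling receptor for interleukin 1, was above 0 in 14 mMSCs and listed at 0 in mMSC14 and mMSC15. Its median was 6.45 FPKM, and its highest values were 41.4 FPKM (mMSC13), 41.2 FPKM (mMSC5) and 37.4 FPKM (mMSC16). After rescaling to a common sum, mMSC16 (17.5 TPM) came below mMSC2 (24.0 TPM). All HL1cm libraries, HL1cm-PC included, were listed at 0. In mMSC-PC, Il1r1 was at 4.48 FPKM, which is 0.346 times the mean of the single mMSCs. Il1r1 and Il1rap, the accessory chain of the interleukin 1 receptor, were both above 0 in 6 of 16 mMSCs.

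Tnfrsf1a, the main receptor for tumour necrosis factor, was above 0 in 14 mMSCs and listed at 0 in mMSC3 and mMSC7. Its median was 28.1 FPKM and its highest value 86.5 FPKM, in mMSC13. Among HL1cm it was at 15.8 FPKM in HL1cm4 and listed at 0 in the other 4, yet HL1cm-PC was at 45.9 FPKM, beside 91.3 FPKM in mMSC-PC. The bulk HL1cm therefore stood above all 5 of its single cells. Tnfrsf1a and its adaptor gene Tradd were both above 0 in 8 of 16 mMSCs and in 1 of 5 HL1cm.

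**Figure D2:**
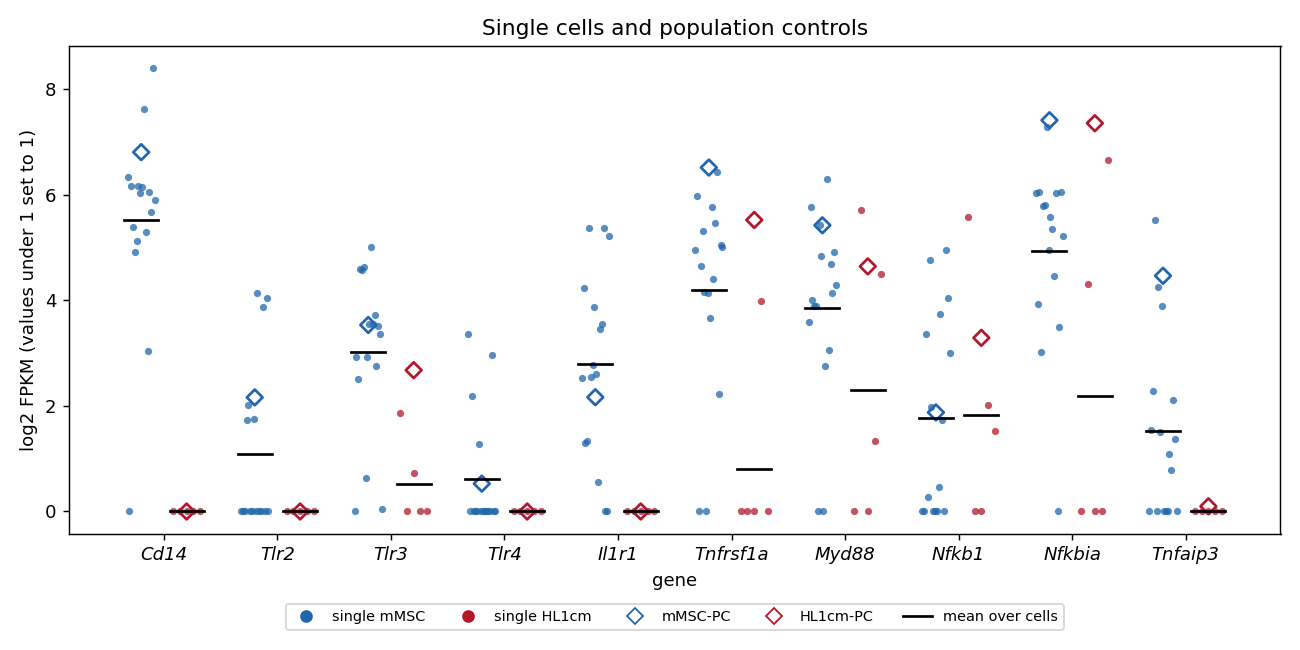
Each dot is a single cell and each open diamond a population control, plotted as log2 FPKM with values under 1 set to 1, for mMSCs (blue) and HL1cm (red), and black bars mark the mean over cells. Cd14, Il1r1 and Tlr3 lie mostly above the HL1cm, Nfkb1 and Myd88 overlap, and for Nfkbia both diamonds lie above all of their single cells.

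Myd88, the adaptor shared by most toll-like receptors and by the interleukin 1 receptor, was above 0 in 14 mMSCs, with 0 in mMSC6 and mMSC9, a median of 16.8 FPKM and a highest value of 78.3 FPKM in mMSC11. In HL1cm it was at 52.4 FPKM (HL1cm2), 22.6 FPKM (HL1cm5) and 2.52 FPKM (HL1cm4) and listed at 0 in HL1cm1 and HL1cm3. Only 2 mMSCs exceeded HL1cm2, so that the ranges overlapped. Myd88 was above 0 in all 6 mMSCs with Tlr2 above 0, and Il1r1 and Myd88 were both above 0 in 12 of 16. The population controls were at 42.8 FPKM (mMSC-PC) and 24.9 FPKM (HL1cm-PC).

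Nfkb1 encodes the p105 precursor of the p50 subunit of NF-kB. It was above 0 in 10 of 16 mMSCs, with a median of 2.35 FPKM, and was highest in mMSC14 (31.1 FPKM) and mMSC5 (27.1 FPKM). In HL1cm it was at 47.6 FPKM (HL1cm1), 4.03 FPKM (HL1cm4) and 2.89 FPKM (HL1cm5) and listed at 0 in HL1cm2 and HL1cm3. As deposited, no mMSC exceeded HL1cm1. A common FPKM sum would multiply HL1cm1 by 0.443, mMSC14 by 0.827 and mMSC5 by 0.893, so this order depends on the scaling. Nfkb1 was the single gene of the 10 that was lower in bulk mMSCs, at 3.67 FPKM in mMSC-PC against 9.77 FPKM in HL1cm-PC. Rela, which encodes the partner subunit p65, had a median of 23.5 FPKM in mMSCs, and both subunits were above 0 in 9 of 16 mMSCs and 2 of 5 HL1cm.

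The inhibitor genes Nfkbia and Tnfaip3 are themselves switched on by NF-kB and close a negative feedback loop. Nfkbia, which encodes the cytoplasmic inhibitor I-kappa-B-alpha, was listed at 0 in mMSC13 and lay between 8.12 FPKM (mMSC4) and 155 FPKM (mMSC7) in the other 15 mMSCs, with a median of 44.5 FPKM over all 16. In HL1cm it was at 101 FPKM (HL1cm5) and 19.8 FPKM (HL1cm2) and listed at 0 in the other 3. As deposited, only mMSC7 exceeded HL1cm5. That count depends on the scaling, since a common FPKM sum would multiply HL1cm5 by 0.536 but mMSC3, at 66.0 FPKM, by 1.39. The population controls were nearly equal, at 170 FPKM in mMSC-PC and 163 FPKM in HL1cm-PC, and each stood above every single cell of its own type.

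Tnfaip3, which encodes the ubiquitin-editing enzyme A20, was above 0 in 12 mMSCs with a median of 2.36 FPKM. The 3 highest cells were mMSC4 (45.9 FPKM), mMSC6 (19.1 FPKM) and mMSC8 (14.8 FPKM), and mMSC4 alone held 44.6% of the sum over the 16 cells. All 5 HL1cm were listed at 0. The bulk levels were 22.1 FPKM in mMSC-PC and 1.07 FPKM in HL1cm-PC. As the latter lies just above the floor of 1 FPKM, the 20.6-fold difference rests on a value near the floor. Both inhibitors were above 0 in 11 of 16 mMSCs and in none of the 5 HL1cm. The cell with the highest Tnfaip3 level, mMSC4, had the lowest Nfkbia level among the cells above 0.

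As the feedback inhibitors are classic NF-kB targets, the letters of the promoters were read for the 10-base NF-kB motif, on both strands, in the 250 bases before and 50 bases after each annotated start (RefSeq, GRCm38.p6). Of the 10 genes, 7 were found in that reference table, and 5 of the 7 (71.4%) held at least 1 match, namely Tlr2, Tlr3, Il1r1, Nfkbia and Tnfaip3. None was found for Tnfrsf1a or Myd88. Of all 27025 genes in the table, 9.55% held a match, as did 11 of 61 further pathway genes and 12 of 25 NF-kB target genes (48.0%). The matches below are printed 5′ to 3′ on the strand of the gene, in windows of 30 bases with the match in capitals. They are shown because they are the inhibitor and toll-like receptor genes whose levels are described here, with the chemokine gene Cxcl10 as a known target chosen after its match was seen. A capital stretch of 11 bases holds matches on both strands that overlap.
Nfkbia, chr12:55492657-55492686, minus strand: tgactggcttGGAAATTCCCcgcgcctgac
Tnfaip3, distal match, chr10:19015516-19015545, minus strand: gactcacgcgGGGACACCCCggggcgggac
Tnfaip3, proximal match, chr10:19015411-19015440, minus strand: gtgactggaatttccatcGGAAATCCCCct
Tlr2, chr3:83841762-83841791, minus strand: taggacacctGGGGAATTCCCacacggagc
Tlr3, chr8:45410572-45410601, minus strand: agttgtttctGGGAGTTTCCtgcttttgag
Cxcl10, distal match, chr5:92349029-92349058, minus strand: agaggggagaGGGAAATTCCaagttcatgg
Cxcl10, proximal match, chr5:92348974-92349003, minus strand: tcggtttacaGGGGACTTCCCtcgggttgc

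The match began 29 bases before the annotated start of Nfkbia, 125 and 12 bases before that of Tnfaip3, 173 bases before that of Tlr2 and 211 bases before that of Tlr3. A further match in Tlr2 began 8 bases before its start and ran across it, and Il1r1 held its match 232 bases before 1 of its 2 annotated starts. By the GENCODE annotation of mm10, the gene models of Tlr3 and Tnfaip3 extend past these windows, that of Tlr2 reaches into its window, and that of Nfkbia ends before it. A match describes the letters and does not show that NF-kB bound there in these cells. The genes with a match included the frequently listed Tlr3 and Nfkbia and the rarely listed Tlr2.

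In the comparison of single mMSCs with single HL1cm, 8 of the 10 genes were higher in mMSCs and none was lower, where 21.4% of 11850 genes tested were higher and 21.6% lower. Tlr4 and Nfkb1 passed neither limit, and Nfkb1 differed by -0.05 on the scale of mean log2 FPKM. The 10 genes had been chosen with earlier results of these data known. For the 5 genes listed at 0 in all HL1cm, the difference depends on the value set in place of 0 and is not given. These 5 genes could not have been called lower. Being at 0 in all 5 HL1cm was itself a property of 16.4% of the genes that reached 1 FPKM in 2 or more mMSCs. The other differences were 3.40 for Tnfrsf1a, 2.75 for Nfkbia, 2.50 for Tlr3 and 1.54 for Myd88, with a median of 2.50 over the 5 genes above 0 in both types. These differences too depend on the value set in place of 0, since 2 to 4 of the 5 HL1cm were listed at 0. Over all alternatives they ran from 1.23 to 5.65 for Tnfrsf1a, from 0.95 to 5.47 for Nfkbia, from 0.41 to 4.29 for Tlr3 and from 0.28 to 2.73 for Myd88. Over all genes above 0 in both types that median was -0.10. Of the 5 genes above 0 in both types, 4 were higher and 0 lower, beside 1863 higher and 2265 lower of 9702 such genes.

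No gene of the 10 had all 16 mMSCs above all 5 HL1cm, and none had all of them below, separations seen for 2.26% and 1.88% of the genes tested. With the log2 of the mean FPKM in place of the mean of log2 values, Nfkbia and Myd88 were no longer called higher, since the means of Nfkbia were 46.4 FPKM in mMSCs and 24.1 FPKM in HL1cm. Leaving out HL1cm1 or HL1cm3 brought the difference of Myd88 to 0.96, just under the limit, and leaving out HL1cm2 brought it to 2.39. Leaving out mMSC9 and mMSC15 ended the call for Tlr2.

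Between the population controls, 4 of the 10 genes were higher in mMSC-PC (Cd14, Tlr2, Il1r1 and Tnfaip3) and 1 was lower (Nfkb1), where 20.5% of 11509 genes were higher and 39.0% lower. These are single bulk libraries, in which fewer cells of a type and less RNA per cell cannot be told apart. Tnfrsf1a was 1.99-fold higher, Tlr3 1.81-fold, Myd88 1.71-fold and Nfkbia 1.04-fold. The median difference over all genes was -0.54 on the log2 scale, and it moved to -0.41 with libraries rescaled to a common sum, to -1.05 with Gapdh as the reference and to -0.22 with the median ratio. The number of the 10 genes called higher followed, at 7 with the common sum, 2 with Gapdh (Cd14 and Tnfaip3) and 7 with the median ratio.

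**Figure D3:**
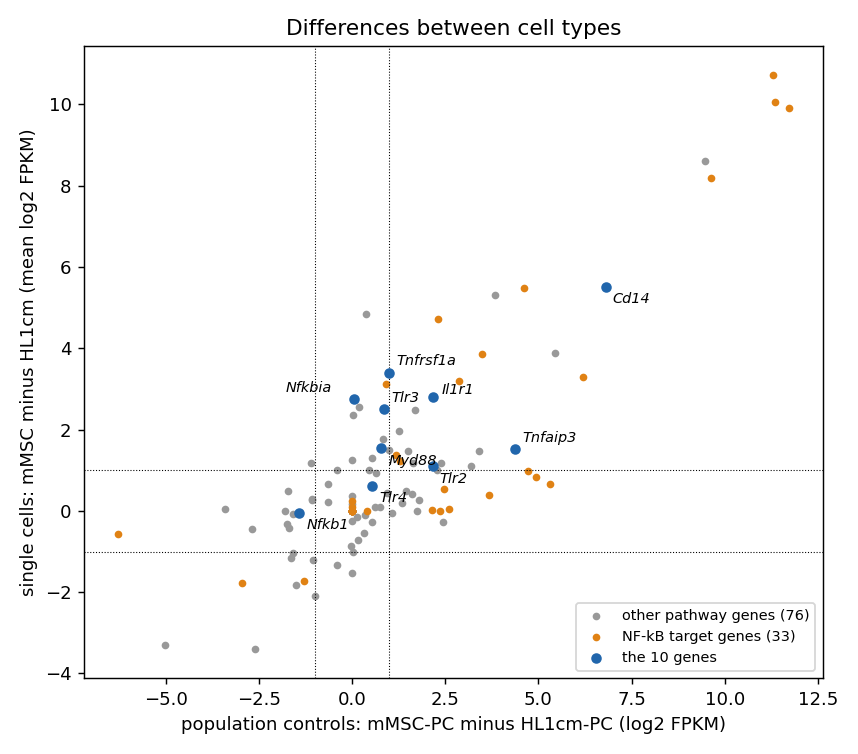
Each dot is a gene, with the log2 FPKM difference between mMSC-PC and HL1cm-PC on the horizontal axis and the difference of mean log2 FPKM between single mMSCs and single HL1cm on the vertical axis, values under 1 FPKM set to 1. Dotted lines mark differences of 1 in either direction. Of the 10 genes (blue), Cd14 lies farthest to the upper right, Nfkbia is higher in single mMSCs with population controls that hardly differ, and Nfkb1 lies near 0 in single cells and to the left in bulk.

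The bulk and the single cells of 1 type were not interchangeable for these genes. Nfkbia in mMSC-PC was 3.66 times the mean of the 16 mMSCs, Tnfaip3 3.43 times and Tnfrsf1a 3.03 times, whereas Tlr3 (0.956 times) and Tlr4 (0.921 times) were close to the mean and Nfkb1 (0.505 times) and Il1r1 (0.346 times) below it. Such offsets were not particular to the 10 genes. Among the 8 genes that every cell uses, the same ratio ran from 0.209 (Tbp) to 2.60 (Gapdh). Tnfrsf1a and Nfkbia in mMSC-PC lay above all 16 single cells, as did 8.60% of the genes that reached 1 FPKM in 2 or more mMSCs. In HL1cm-PC, Tlr3, Tnfrsf1a, Nfkbia and Tnfaip3 lay above all 5 single HL1cm. Of the 4 genes that reached 1 FPKM in at least 2 HL1cm, 2 did so, beside 29.0% of all such genes.

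Correlations between mMSCs were computed for the 8 genes above 0 in at least 8 mMSCs, which leaves out Tlr2 and Tlr4. There were 28 pairs, with a median Pearson's r of -0.15 for log2 FPKM over the 16 cells. Of these, 9 pairs were above 0 and 19 below, and none reached 0.5 in either direction. The highest value was 0.38 for Il1r1 with Tnfrsf1a (Spearman's rho = 0.41), and the lowest was -0.45 for Cd14 with Il1r1 (rho = -0.52). The cell mMSC13 shows the spread, with the highest Tnfrsf1a and Il1r1 levels of all mMSCs and Nfkbia listed at 0. The cells come from the same capture, differ in depth and share no independent replicate, so these values are a description.

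**Figure D4:**
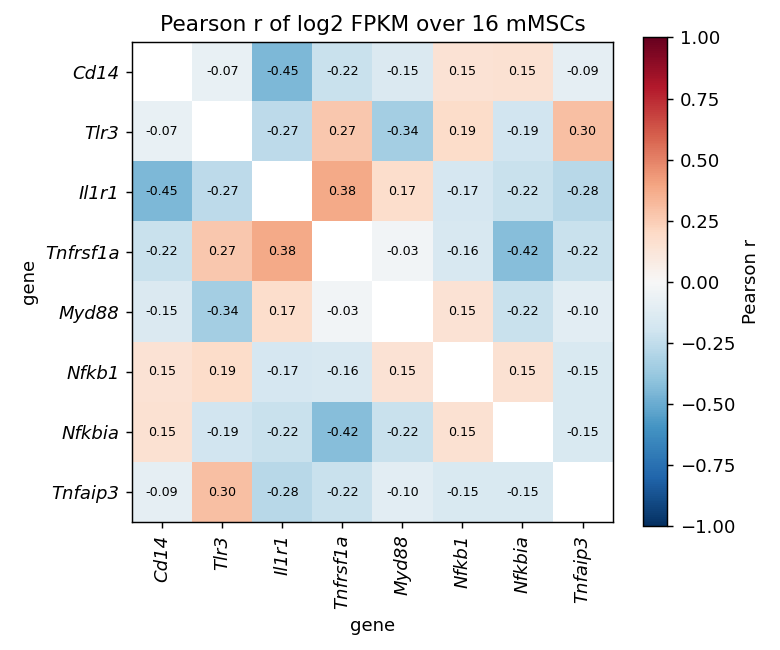
Each square gives Pearson's r of log2 FPKM over the 16 single mMSCs for a pair of the 8 genes that were above 0 in at least 8 of these cells, with the colour scale from -1 (blue) to 1 (red). The squares are pale, the reddest being Il1r1 with Tnfrsf1a at 0.38 and the bluest Cd14 with Il1r1 at -0.45.

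The genes whose log2 FPKM was most like each of the 8 across mMSCs were taken from the 6776 genes that reached 1 FPKM in 8 or more mMSCs. They were Mrpl53 and Pmpcb for Cd14 (r = 0.87 for each), Pibf1 (0.84) and Grk4 (0.83) for Tlr3, Tmem88 (0.80) and Dhx38 (0.74) for Il1r1, and Ccnl1 (0.79) and Eif1a (0.78) for Tnfrsf1a. For Myd88 they were Rabggta (0.86) and Fat1 (0.83), for Nfkb1 0610007P22Rik and Sgms2 (0.86 for each), for Nfkbia Ndufb3 and Tmem147 (0.78 for each), and for Tnfaip3 Fam76a (0.78) and Zfp961 (0.75). None of these genes is in the lists of pathway or target genes used here. As the best of so many genes over 16 cells, such values describe the cells at hand.

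The wider pathway was described by 76 further genes, of which 14 were listed at 0 in all 23 libraries. Of the 76, 20 (26.3%) were higher and 10 (13.2%) lower in single mMSCs, where 21.4% and 21.6% of the genes tested were. Only 58 of the 76 passed the filter on low values behind the shares of all genes, so these shares are taken over unlike sets of genes. Over the 58 alone, 34.5% were higher and 17.2% lower. By role, 8 of 23 receptor genes were higher and 1 lower, as were 5 and 2 of 16 adaptor genes, 3 and 2 of 17 kinase and ubiquitin enzyme genes, 1 and 3 of 5 transcription factor genes, and 3 and 2 of 15 inhibitor genes. Leaving out HL1cm2 brought the number of lower genes from 10 to 5.

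Il1rl1, the receptor for interleukin 33, had the highest median of the 76 genes, at 453 FPKM in mMSCs against at most 1.28 FPKM in HL1cm. All 16 mMSCs lay above all 5 HL1cm, a separation seen for 2.26% of the genes tested. Ifih1, a cytoplasmic sensor of double-stranded RNA, was above 0 in all 16 mMSCs (11.9 to 112 FPKM, median 43.8) and reached 0.994 FPKM in 1 HL1cm. Nfkbiz, a nuclear member of the inhibitor family, had a median of 26.0 FPKM in mMSCs and was at 8.49 FPKM in 1 HL1cm. Like Tlr3 and Cd14, these genes were higher in mMSCs.

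Further genes of the pathway were found in both directions, with 1 receptor gene, Cd36, among the lower ones. Ube2n, a ubiquitin-conjugating enzyme, was higher in mMSCs by 1.96 in mean log2 FPKM (median 76.3 FPKM), but its partner Ube2v1 (140 FPKM) differed by -0.09, Rela by 0.08 and the kinase gene Irak1 (20.8 FPKM) by -0.14. The lowest differences of all 76 genes belonged to Relb, an NF-kB subunit of the non-canonical route (-3.41), Cd36, a scavenger receptor and fatty acid transporter (-3.30), Irf3, an interferon regulatory factor activated downstream of Tlr3 (-2.10), and Rbck1, a subunit of a ubiquitin ligase complex (-1.83). Tlr3 and its adaptor gene Ticam1 were both above 0 in 7 of 16 mMSCs.

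A list of 33 known NF-kB target genes held 12 that were higher in single mMSCs and 2 that were lower, beside 21.4% and 21.6% of the genes tested. Of the 33, 20 passed the filter behind these shares, which asks for 1 FPKM in at least 2 of the 21 single cells. Over the 20 alone, 60% were higher and 10% lower. The highest medians in mMSCs were those of 3 chemokine genes, at 2247 FPKM for Ccl5, 1387 FPKM for Ccl7 and 1041 FPKM for Ccl2, followed by Ptgs2, a prostaglandin-synthesising enzyme (330 FPKM), Cxcl10 (306 FPKM), the macrophage growth factor gene Csf1 (183 FPKM) and Ier3 (120 FPKM). The other 4 chemokine genes of the list, Ccl20, Cxcl1, Cxcl2 and Cxcl5, had a median of 0 in single mMSCs. In bulk, however, Cxcl1 was at 87.1 FPKM in mMSC-PC and 19.6 FPKM in HL1cm-PC. Every mMSC lay above every HL1cm for Ccl2, Ccl7, Ptgs2, Csf1 and Tnfaip2, a separation seen for 2.26% of the genes tested. The survival gene Bcl2l1 had a median of 69.4 FPKM and a difference of 1.23.

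The direction was not common to all targets. Sod2, a mitochondrial antioxidant enzyme, was lower in mMSCs, with a difference of -1.78 in mean log2 FPKM and all 16 mMSCs (11.7 to 38.5 FPKM) below all 5 HL1cm (48.1 to 119 FPKM). Such a separation was seen for 1.88% of the genes tested. The adhesion molecule gene Vcam1 was lower as well, with a difference of -1.73. Icam1 was listed at 0 in all mMSC libraries and reached 7.35 FPKM in 1 HL1cm and 78.1 FPKM in HL1cm-PC. Tnf, whose product is a ligand of Tnfrsf1a, and Il1b, whose product is a ligand of Il1r1, were listed at 0 in all 23 libraries. Il1a, which encodes the other activating ligand of Il1r1, was at 39.5 FPKM in mMSC6, 21.9 FPKM in mMSC14, 9.38 FPKM in mMSC8 and 6.16 FPKM in mMSC3. It was at 26.5 FPKM in mMSC-PC and at 0 elsewhere, HL1cm-PC included. The chemokine gene Cxcl5 was above 0 in 1 single mMSC, at 0.277 FPKM, and in 1 single HL1cm, at 0.448 FPKM.

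Within mMSCs, the 8 genes were also set against the 15 targets that were above 0 in at least 8 cells, which gave 120 pairs with a median r of -0.02. The highest values were 0.56 for Tlr3 with Tnfaip2, 0.54 for Cd14 with Vcam1 and 0.52 for Tlr3 with Cxcl10, and the lowest was -0.68 for Tnfaip3 with Gadd45b. Of the 120 values, 3 were at 0.5 or more and 1 was at -0.5 or less.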

How the data were processed

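The authors aligned paired reads to mm10 with TopHat2 2.0.12 and estimated abundance with Cufflinks 2.2.1, and the deposited values are FPKM per gene and library, used here as deposited. FPKM share a library's total, so a few abundant or short genes can shift all other values, and low values rest on few reads. No common single-fragment step was found in the values, so that depth, counts and count models were not used here. Before log2 values were taken, 1 FPKM replaced any lower value. Genes tested were at 1 FPKM or more in at least 2 of the 21 single cells (11850 genes). Calls needed a difference of 1 in mean log2 FPKM. Intervals for shares of cells are exact 95% binomial (Clopper-Pearson) intervals.

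The 10 genes and the lists of pathway genes, target genes and markers were chosen with earlier results of these data known. Named from the pathway and target lists were the 8 genes with the highest median in mMSCs and the 4 with the largest difference in each direction, and for each of the 8 members above 0 in at least 8 mMSCs the 2 most correlated genes. Ly96, Il1rap, Tradd, Ticam1, Tnf, Il1b, Tnfaip2 and Gadd45b were named beside them, the last 4 after their values were seen. Alternatives covered the floor, scaling, detection limit, left-out cells and the call limit. Promoters came from a RefSeq table of GRCm38.p6, in which Cd14, Tlr4 and Nfkb1 were not found. Work was done in Python 3.11.15 with pandas 2.3.3, numpy 2.4.6, scipy 1.17.1 and matplotlib 3.10.9.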

Additional observations from a re-analysis of the deposited data

Results flagged for a closer look

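Tnfrsf1a in HL1cm4, at 15.8 FPKM, stood apart from the other 4 HL1cm, which were listed at 0. In the 5 HL1cm, its gap to the nearest cell spanned the whole range of the group. The limit behind this flag is set so that chance flags about 1 in 20 groups, but it takes no account of values at 0. Any gene above 0 in just 1 of the 5 HL1cm meets it, which held for 1576 of the 11850 genes tested (13.3%).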

How the results depend on the processing

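Of 140 repeats of single-gene differences for the 10 genes, 127 moved by less than the SD between mMSCs, 13 moved further and none reversed a called direction. For each gene this SD was above the call limit of 1, so a call could be lost without counting as moved. This held for Tlr2 with the median over cells (0) and without mMSC9 and mMSC15 (0.97). It held for Myd88 with the log2 of the mean FPKM (0.58) and without HL1cm1 or HL1cm3 (0.96). With values under 10 FPKM set to 10, it held for Tlr2 (0.13), Tnfaip3 (0.23) and Myd88 (0.28). For the 5 genes listed at 0 in all HL1cm, leaving out an HL1cm could not change the difference, and no setting could reverse it. A reversal was counted only for called genes, so only Tnfrsf1a, Nfkbia, Tlr3 and Myd88 could have shown one. Nfkb1, which was not called, lay between -0.59 and 0.88 and thus changed sign, being 0.88 without HL1cm1. With values under 10 FPKM set to 10, 2 of the 10 genes were higher in single mMSCs (5 with a limit of 2 in log2), pathway genes were 5 higher and 1 lower (7 and 3 with the limit of 2), and targets were 1 lower (0 with the limit of 2). Rescaling to a common sum gave 6 lower pathway genes, and leaving out each HL1cm in turn gave between 5 (without HL1cm2) and 10. Between population controls, 2 genes were higher and 0 lower with the floor of 10, 0 were lower with the limit of 2, and 7, 2 and 7 were higher with the common sum, Gapdh and the median ratio. At 10 FPKM or more, 5 of the 10 genes were found in at least 8 mMSCs, and 0 rather than 2 in most HL1cm. Without a filter on low values, 10.9% of all genes were called higher and 11.3% lower. Scaling moved the median difference of all genes in single cells from 0.08 to 0.23 (common sum), 0.22 (Gapdh) and -0.06 (median ratio), and 8 of the 10 genes were higher under each. The causes were not tested. No paired analysis was possible because replicate numbers only name cells and no test was run. Depth limits what a 0 means, and 5 HL1cm allow a share of up to 52.2% of cells for a gene listed at 0 in all of them (exact 95% interval).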
